A study of Mus musculus with 45 samples.

Results

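The step from 3 to 10 µg/kg of the dioxin TCDD (2,3,7,8-tetrachlorodibenzo-p-dioxin) was examined in 10 of the 45 mouse livers of a dose response study, chosen by their dose labels alone: 5 livers given 3 and 5 given 10 µg/kg. The question was which hepatic genes still changed when a dose that already induces many genes was raised 3.33-fold, and which had reached a plateau. RNA was sequenced from pieces of frozen liver of female C57BL/6 mice, with no transgene or deletion labelled, gavaged every 4 days for 28 days from postnatal day 28 with TCDD in sesame oil and killed at day 28. Vehicle mice received sesame oil, and the other 6 groups received TCDD doses between 0.01 and 30 µg/kg, with 5 separate mice in each. This dosing interval is that of the study's methods, whereas the sample labels call the gavage daily. The labels also describe all animals as ovariectomized, which the methods do not mention. Liver tissue mixes hepatocytes with other cells, so fewer cells of a type and less RNA per cell cannot be told apart.

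TCDD binds the aryl hydrocarbon receptor (AhR), which then enters the nucleus, pairs with ARNT and acts on genes that carry dioxin response elements. The receptor's best known targets in hepatocytes are the cytochrome P450 genes *Cyp1a1*, *Cyp1a2* and *Cyp1b1*, and among them are its own repressors *Ahrr* and *Tiparp*. Sustained activation in rodent liver is known for fat accumulation, inflammation and loss of many hepatocyte enzymes.

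The 10 libraries held 13174364 to 47459314 reads on genes at 3 µg/kg and 15007410 to 29226126 at 10 µg/kg. Albumin stood at 92769 to 117930 CPM (reads per 1e6 reads on genes, scaled by TMM) in these livers, while the T, B and NK cell markers examined stayed at or below 2.09 CPM. 1 liver at 3 µg/kg, liver 1 in accession order, stood apart on the main axis of variation, which held 22.5% of the variance and did not separate the doses. Among the 20 genes with the largest weights on that axis were the clock genes *Nr1d1*, *Cry1* and *Noct* and the gluconeogenic gene *G6pc*. In that liver the summed macrophage and myeloid markers reached 883 CPM, against 337 to 566 CPM in the other 3 µg/kg livers and 381 to 534 CPM at 10 µg/kg. The next axis held 16.7% of the variance and separated all livers of the 2 doses. Alignments to more than 1 place, which the counts leave out, numbered 96.9 to 109 per 100 reads on genes at 3 µg/kg and 69.1 to 96.7 at 10 µg/kg (exact permutation test, two-sided p = 0.00794, the smallest that 5 against 5 allows), and their part in the results was not tested.

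From 3 to 10 µg/kg, 137 of 17464 genes changed, which is 0.784% of those tested (edgeR quasi-likelihood test, Benjamini-Hochberg adjusted p under 0.05 over all genes). Of these, 96 rose (0.55% of genes tested) and 41 fell (0.235%). Changes of at least 2-fold were made by 77 genes (0.441%), 59 upward and 18 downward. The genes that rose were mostly scarce, with a median of 123 reads per liver and a median fold of 2.42. Those that fell were more abundant, at a median of 674 reads per liver, and changed less, at a median of 1.76-fold. The median log2 fold change of all genes tested was 0.0024. In 114 of the 137 changed genes the CPM ranges of the groups did not overlap, which held for 2.85% of all genes tested. Without the liver that stood apart, 139 genes changed, 118 of them among the 137. Without liver 3 at 3 µg/kg, 63 genes rose in place of 96, and without liver 5 at 10 µg/kg, 27 fell in place of 41.

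**Figure D1:**
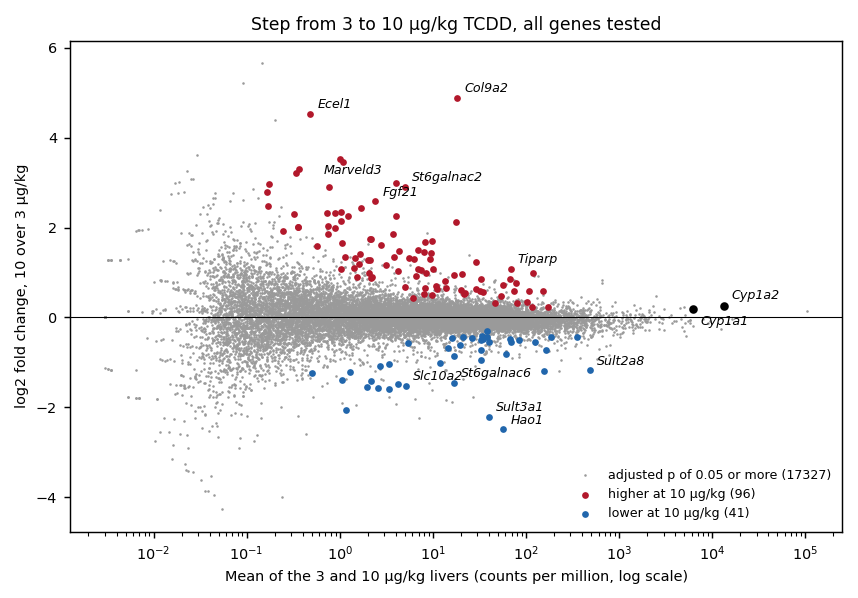
Each point is 1 of 17464 genes, with the mean CPM over the 3 and 10 µg/kg livers on a log x axis and the fitted log2 fold change, 10 over 3 µg/kg, on the y axis. The 96 genes that rose (red) reach 4.89 on the log2 scale, the 41 that fell (blue) reach -2.49, and Cyp1a1 and Cyp1a2 (black) lie near 0 at the right.

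The largest increase was that of *Col9a2*, which encodes a chain of type IX collagen, a fibril-associated collagen of cartilage. In the 3 µg/kg livers it stood at 1.02, 1.14, 1.26, 1.35 and 1.09 CPM, and in the 10 µg/kg livers at 23.1, 27.1, 55.6, 13.6 and 55 CPM. The lowest 10 µg/kg liver was thus above the highest 3 µg/kg liver, with a fold of 29.6 (log2 fold change 4.89 ± 0.40 SE, adjusted p = 1.76e-10). The mean was 0.0366 CPM in vehicle livers, 0.189 at 1 µg/kg and 115 at 30 µg/kg. *Col9a2* lies on chromosome 4 at 121039385 to 121055322 on the forward strand (GRCm38) and shares no exon with another annotated gene.

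The promoter windows shown here belong to the gene that rose most, the gene that fell most, the AhR repressor that rose and the best known AhR target. They hold 300 bases across each annotated start, 5′ to 3′, from RefSeq (GRCm38.p6), with the core of the dioxin response element, GCGTG on either strand (CACGC when read on the other), in capitals.
Col9a2 (chr4:121039316-121039615, plus strand): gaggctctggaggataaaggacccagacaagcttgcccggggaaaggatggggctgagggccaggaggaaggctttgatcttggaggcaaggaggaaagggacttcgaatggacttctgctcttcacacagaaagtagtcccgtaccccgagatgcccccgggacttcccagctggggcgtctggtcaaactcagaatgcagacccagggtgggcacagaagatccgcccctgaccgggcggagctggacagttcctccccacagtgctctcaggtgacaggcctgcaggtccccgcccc
Hao1 (chr2:134554303-134554602, minus strand): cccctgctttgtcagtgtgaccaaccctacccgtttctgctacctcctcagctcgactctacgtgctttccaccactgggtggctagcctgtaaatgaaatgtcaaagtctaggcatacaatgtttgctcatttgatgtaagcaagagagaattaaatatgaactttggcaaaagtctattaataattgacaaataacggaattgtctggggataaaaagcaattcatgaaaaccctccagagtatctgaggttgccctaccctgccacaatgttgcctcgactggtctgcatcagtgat
Tiparp (chr3:65528197-65528496, plus strand): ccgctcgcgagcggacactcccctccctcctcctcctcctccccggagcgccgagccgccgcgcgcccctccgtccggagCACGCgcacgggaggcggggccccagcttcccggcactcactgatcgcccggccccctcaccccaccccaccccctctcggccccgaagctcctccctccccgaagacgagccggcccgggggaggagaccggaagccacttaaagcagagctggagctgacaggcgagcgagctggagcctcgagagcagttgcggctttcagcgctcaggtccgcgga
Cyp1a1 (chr9:57697363-57697662, plus strand): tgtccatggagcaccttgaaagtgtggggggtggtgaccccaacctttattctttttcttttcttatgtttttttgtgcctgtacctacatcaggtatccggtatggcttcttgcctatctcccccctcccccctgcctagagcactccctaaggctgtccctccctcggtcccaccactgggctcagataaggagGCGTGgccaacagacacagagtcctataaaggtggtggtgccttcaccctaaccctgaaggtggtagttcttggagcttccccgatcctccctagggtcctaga
The windows of *Col9a2* and *Hao1* held no core. Those of *Tiparp* and *Cyp1a1* held 1 each, which began at positions -170 and -54 relative to the RefSeq start. The *Col9a2* position given above is from GENCODE, and its first base, 121039385, lies inside the window. Upstream of that base the *Col9a2* window reaches only to 121039316. Of all mouse promoter windows of this length, 32.4% held the core. Windows were matched for 67 of the 96 genes that rose and 25 of the 41 that fell, under 80% of each, so a count over these genes would be void. A match of these letters is a description only, and elements farther from the start were not examined.

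Several other genes that rose were near the detection limit at 3 µg/kg. *Marveld3*, a tight junction protein, stood at 0.877, 0.787, 0.596, 1.29 and 1.03 CPM at 3 µg/kg and at 5.78, 6.9, 7.23, 5.83 and 10 CPM at 10 µg/kg. Its fold was 7.96 (log2 2.99 ± 0.26, adjusted p = 1.76e-10), and every 10 µg/kg liver lay above every 3 µg/kg liver. Vehicle livers averaged 0.572 ± 0.174 CPM (SD, n = 5), and the 3 µg/kg mean of 0.915 ± 0.261 CPM differed from them by 0.66 on the log2 scale (adjusted p = 0.231). *St6galnac2*, a sialyltransferase of O-glycans, stood at 1.61, 1.1, 1.02, 1.16 and 1.06 CPM and then at 6.07, 8.06, 8.05, 8.57 and 13.1 CPM, again without overlap (fold 7.53, adjusted p = 7.87e-09).

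*Cnksr1*, a scaffold of Ras signalling, stood at 0.146, 0.269, 0.0701, 0.193 and 0.161 CPM at 3 µg/kg and 2.43, 1.63, 2.41, 1.61 and 1.93 CPM at 10 µg/kg, with no overlap (log2 3.46 ± 0.38, adjusted p = 1.03e-08). *Ap1m2*, the adaptor subunit that sorts proteins to the basolateral membrane of epithelial cells, rose from 0.137 ± 0.11 to 1.89 ± 1.2 CPM (SD, n = 5, log2 3.51, adjusted p = 1.15e-06). *Ecel1*, a membrane metallopeptidase named for its similarity to endothelin converting enzymes, had 1, 2, 0, 0 and 2 reads in the 3 µg/kg livers and 43, 7, 6, 20 and 46 reads at 10 µg/kg. The livers did not overlap, but the log2 change of 4.53 ± 0.97 (adjusted p = 0.000151) had a 95% interval of 2.55 to 6.52, and the mean reached 14.6 CPM at 30 µg/kg.

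*Gpx2*, an epithelial glutathione peroxidase, rose from 0.158 ± 0.144 to 1.39 ± 0.802 CPM (log2 2.89, adjusted p = 0.000124). *Trpv4*, a calcium channel that responds to osmotic and mechanical stimuli, rose from 0.521 ± 0.134 to 2.86 ± 1.3 CPM (log2 2.44, adjusted p = 3.21e-05). *Parm1*, a mucin-like membrane protein, rose from 0.277 ± 0.123 to 1.48 ± 0.297 CPM (log2 2.33, adjusted p = 1.33e-05). In these 3 genes too, the lowest 10 µg/kg liver exceeded the highest 3 µg/kg liver.

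*Fgf21*, a hormone that the liver secretes under metabolic stress, stood at 0.146, 0.455, 0.491, 0.644 and 1.54 CPM at 3 µg/kg and at 7.43, 2.21, 2.98, 4.52 and 3.47 CPM at 10 µg/kg. The groups did not overlap (fold 6, log2 2.59 ± 0.51, adjusted p = 0.00259). Its means were 0.383 CPM in vehicle livers, 0.411 at 1 µg/kg and 17.9 at 30 µg/kg.

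**Figure D2:**
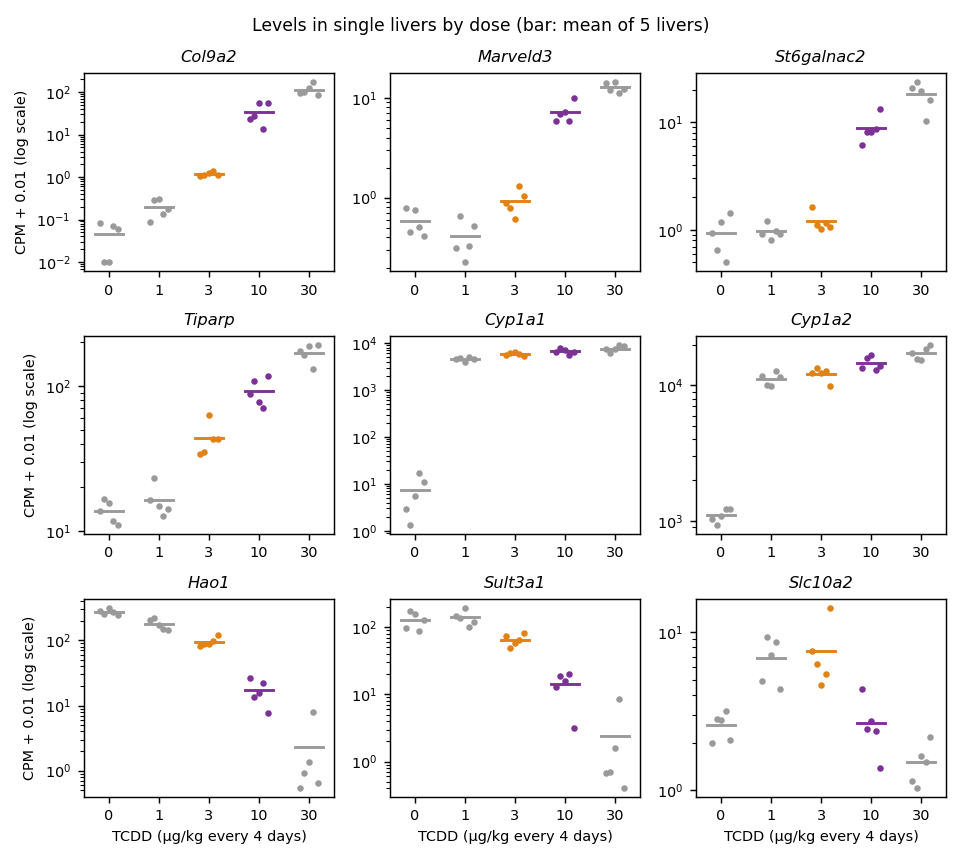
Each panel shows 1 gene, with CPM plus 0.01 on a log y axis for each of 5 livers in the vehicle (0), 1, 3, 10 and 30 µg/kg groups and a bar at the group mean; 3 µg/kg is orange and 10 µg/kg purple. Col9a2, Marveld3, St6galnac2 and Tiparp are higher and Hao1, Sult3a1 and Slc10a2 lower at 10 than at 3 µg/kg without overlap, while Cyp1a1 and Cyp1a2 overlap.

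The largest decrease was that of *Hao1*, the peroxisomal glycolate oxidase that makes glyoxylate in hepatocytes. It stood at 82, 89.4, 89.1, 98.3 and 121 CPM at 3 µg/kg and at 26.2, 13.7, 15.6, 22.4 and 7.55 CPM at 10 µg/kg, with no overlap. The level was 5.61-fold lower (log2 -2.49 ± 0.31, adjusted p = 4.12e-06). The mean in vehicle livers was 273 ± 28.8 CPM, and at 30 µg/kg it was 2.3 ± 3.24 CPM (SD, n = 5). *Sult3a1*, a cytosolic sulfotransferase, stood at 73.4, 48.7, 58.3, 64.6 and 81.1 CPM at 3 µg/kg and 13, 18.8, 15.8, 20 and 3.16 CPM at 10 µg/kg, a 4.63-fold lower level without overlap (log2 -2.21 ± 0.43, adjusted p = 0.00335). *Sult2a8*, a liver sulfotransferase of bile acids, went from 672 ± 70.3 to 297 ± 95 CPM (log2 -1.18, adjusted p = 0.00385). In the mouse, *Sult3a1* has a close paralog, *Sult3a2*, so reads that aligned to both were left out of the counts.

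*St6galnac6*, a sialyltransferase of gangliosides, had the smallest adjusted p of the genes that fell. It stood at 27.5, 29.9, 29, 18.9 and 18 CPM at 3 µg/kg and 8.96, 8.28, 10.5, 10.5 and 6.91 CPM at 10 µg/kg, with no overlap (log2 -1.46 ± 0.15, adjusted p = 1.03e-08). *St6galnac2* and *St6galnac6*, which belong to the same family of sialyltransferases, therefore moved in opposite directions at this step. *Atp6v0d2*, a subunit of the vacuolar proton pump, fell by 1.47 on the log2 scale (adjusted p = 0.00283). *S1pr5*, a receptor of sphingosine 1-phosphate, fell by 1.42 (adjusted p = 0.000483), and *H2-Q1*, a class I gene of the major histocompatibility complex with near-identical relatives, by 1.57 (adjusted p = 0.000984).

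*Slc10a2*, the sodium-dependent bile acid transporter best known from the ileum, stood above the vehicle at lower doses and then fell back. It stood at 7.6, 6.29, 4.59, 5.41 and 14.2 CPM at 3 µg/kg and at 4.38, 2.42, 2.73, 2.35 and 1.37 CPM at 10 µg/kg, without overlap (log2 -1.52 ± 0.32, adjusted p = 0.00737). Against a vehicle mean of 2.56 CPM, the means of the 1, 3, 10 and 30 µg/kg groups were 6.87, 7.62, 2.65 and 1.49 CPM (adjusted p = 0.0123, 0.00145, 0.938 and 0.101 against the vehicle). *Slc10a2* was therefore above the vehicle at the lower 2 of these doses, and no difference from it passed the test at the upper 2. Its mean log2 CPM already exceeded the vehicle mean by 1.30, 0.53, 1.17 and 1.32 at 0.01, 0.03, 0.1 and 0.3 µg/kg. At 1 and 3 µg/kg the excess was 1.35 and 1.44, so no steady rise with dose was seen. The groups below 1 µg/kg were not tested against the vehicle, and whether the vehicle group was low was not tested. The fall from 3 to 10 µg/kg lost its call without liver 5 at 3 µg/kg (log2 -1.16, adjusted p = 0.0886) or liver 5 at 10 µg/kg (log2 -1.34, adjusted p = 0.0504).

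The remaining genes among the 10 largest decreases were less stable. *Cyp2g1*, a cytochrome P450 best known from the olfactory mucosa, went from 5.15 ± 3.05 to 1.65 ± 0.502 CPM (log2 -1.59, adjusted p = 0.0413), and without the liver that stood apart its log2 change was -1.20 (adjusted p = 0.22). It also lost its call without liver 4 at 3 µg/kg or any of livers 2 to 5 at 10 µg/kg, with adjusted p from 0.076 to 0.158. *Ube2u*, an E2 ubiquitin-conjugating enzyme, went from 1.88 ± 0.581 to 0.459 ± 0.211 CPM (log2 -2.07, adjusted p = 0.0193) and lost its call without liver 2 at 3 µg/kg or without liver 1, 4 or 5 at 10 µg/kg (adjusted p from 0.0523 to 0.113). *Znf41-ps*, a zinc finger pseudogene, had 10, 26, 16, 15 and 24 reads at 3 µg/kg and 10, 5, 3, 4 and 13 reads at 10 µg/kg (log2 -1.24, adjusted p = 0.0175), and lost its call without liver 4 or 5 at 3 µg/kg or liver 3 or 4 at 10 µg/kg (adjusted p from 0.0506 to 0.0822).

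Among 13 genes of the AhR battery and its receptor complex, 1 rose and 0 fell, with a median log2 fold change of 0.19, while 0.55% of all genes rose and 0.235% fell. The gene that rose was *Tiparp*, an ADP-ribosyltransferase that represses the AhR. It stood at 34.2, 35.2, 63.1, 43.1 and 42.9 CPM at 3 µg/kg and 88.7, 108, 77.2, 71 and 118 CPM at 10 µg/kg, with no overlap (fold 2.12, log2 1.08 ± 0.16, adjusted p = 5.9e-05). Its mean was 13.7 CPM in vehicle livers, 16.2 at 1 µg/kg and 169.6 at 30 µg/kg. A small share of its exon bases, 5.12%, overlaps an antisense gene, and the strand setting of the counting is not given in the sources used here.

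*Cyp1a1*, the classical AhR target, stood at 5641, 6185, 6436, 5751 and 5242 CPM at 3 µg/kg and at 6282, 7990.3, 6969.5, 5688 and 6342 CPM at 10 µg/kg. The groups overlapped, and the log2 change was 0.19 with a 95% interval of -0.95 to 1.32 (adjusted p = 0.963). The spread behind this interval is taken from all 45 livers. In a fit of the 10 livers alone it was -0.04 to 0.41, within 1.5-fold. Vehicle livers averaged 7.5 CPM and 1 µg/kg livers 4593 CPM. *Cyp1a2*, which encodes the constitutive hepatic P450 of the family, stood at 12370.5, 13527, 12415, 12841 and 9905 CPM at 3 µg/kg and 13501, 15846, 16674, 13077 and 13997 CPM at 10 µg/kg, overlapping, with a log2 change of 0.26 and an interval of -0.00422 to 0.52 that lies within 1.5-fold. In the fit of the 10 livers alone the *Cyp1a2* interval was 0.0253 to 0.491, within 1.5-fold but above 0 (edgeR adjusted p = 0.406). Its livers ranged from 9889 to 12795 CPM at 1 µg/kg and from 15492 to 19859 CPM at 30 µg/kg.

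*Cyp1b1* and *Ahrr* did not overlap between the doses, yet neither passed the test over all livers. *Cyp1b1*, a mostly extrahepatic member of the family, stood at 384, 491, 514, 494 and 468 CPM at 3 µg/kg and 685, 988, 892, 713 and 925 CPM at 10 µg/kg (log2 0.84, interval -0.10 to 1.77, adjusted p = 0.612). *Ahrr*, the AhR repressor, stood at 36.7, 30.1, 30.6, 34.4 and 32.2 CPM and then at 79.5, 52.2, 44.2, 65.5 and 43 CPM (log2 0.80, interval 0.24 to 1.36, adjusted p = 0.245). In the fit of the 10 livers alone the adjusted p was 0.00497 for *Cyp1b1* and 0.0292 for *Ahrr*, at log2 changes of 0.84 and 0.80, so that 3 of the 13 genes rose there, as did 0.504% of all genes.

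Of the other members, the intervals of *Nqo1*, *Ugdh*, *Nfe2l2*, *Ahr* and *Arnt* lay within 1.5-fold. Over the whole list 7 of 13 intervals did, close to the 50.4% of all genes tested. *Nqo1*, a quinone reductase, went from 37.9 ± 6.35 to 41.3 ± 5.59 CPM (log2 0.12, interval -0.24 to 0.48). *Ugdh*, which makes UDP-glucuronic acid, went from 438 ± 41.1 to 448 ± 67.9 CPM (log2 0.03, interval -0.26 to 0.33), and *Nfe2l2*, the regulator of antioxidant genes, from 139 ± 10.1 to 157 ± 11.9 CPM (log2 0.18, interval -0.00238 to 0.36). The receptor gene *Ahr* stood at 91.9 ± 20.6 and 83.5 ± 24 CPM and its partner *Arnt* at 60.9 ± 3.39 and 54.8 ± 5.5 CPM, with estimates of -0.14 and -0.15 on the log2 scale. For *Gsta1*, a glutathione transferase with near-identical paralogs, and *Aldh3a1*, an aldehyde dehydrogenase with at most 14 reads in any of the 10 livers, the intervals were -0.36 to 1.62 and 0.22 to 2.92 (adjusted p = 0.77 and 0.356).

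To separate genes still changing from genes on a plateau, 137 responsive genes were taken that differed from the vehicle by at least 2-fold at both 1 and 30 µg/kg in the same direction, 107 upward and 30 downward. Such calls were made for 0.882% of genes at 1 µg/kg and 11.4% at 30 µg/kg, in livers other than those of the step. Of the 137, 12 changed from 3 to 10 µg/kg (8.76%, against 0.784% of all genes tested), 9 upward and 3 downward. Without liver 3 at 3 µg/kg 7 did. Another 13 (9.49%) were on a plateau, meaning that the 95% interval of the step lay within 1.5-fold, as it did for 50.4% of all genes tested. For the other 112 the data did not decide between a change and a plateau. With a margin of 2-fold, 72 were on a plateau (52.6%, against 72% of all genes), and with a margin narrower than 1.5-fold, 2. Where the step was instead tested in the 10 livers alone, 26 responsive genes were on a 1.5-fold plateau (the share of all genes in that fit was 55.1%), among them all 13 of the fit over all livers, and 15 changed, 8 of them among the 12 (of all genes, 0.792% changed in that fit). Of the 107 induced genes, 88 had a higher estimate at 10 µg/kg, with a median of 0.28 on the log2 scale, and of the 30 repressed genes 23 had a lower one, with a median of -0.35.

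**Figure D3:**
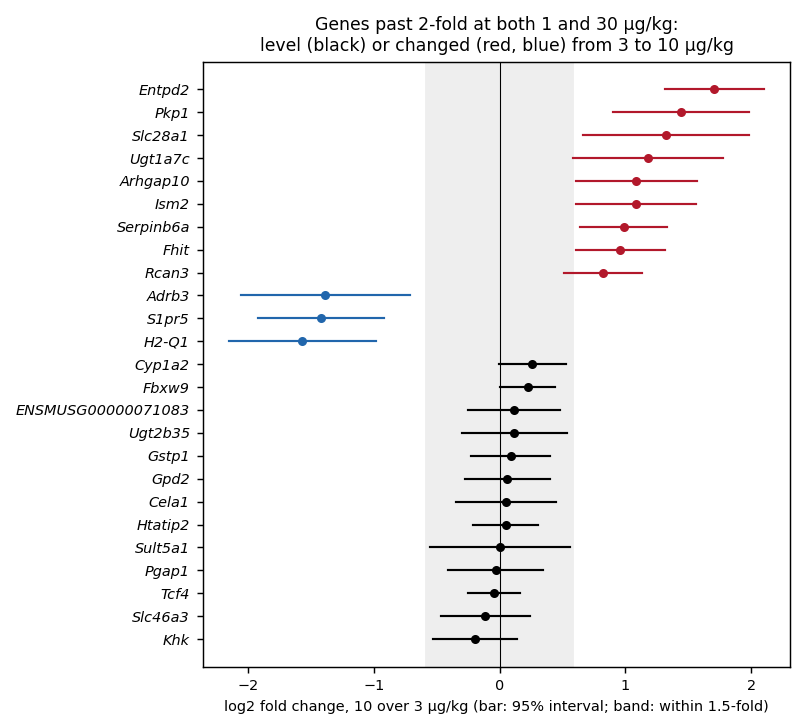
The log2 fold change, 10 over 3 µg/kg, is shown with its 95% interval for the 12 responsive genes that changed (red for higher, blue for lower) and the 13 on a plateau (black); the grey band spans 1.5-fold in either direction. All black intervals lie inside the band, and the changed genes range from -1.57 for H2-Q1 to 1.71 for Entpd2.

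*Sult5a1*, a sulfotransferase, was on a plateau. Its 3 µg/kg livers stood at 286, 227, 196, 201 and 238 CPM and its 10 µg/kg livers at 209, 189, 282, 238 and 229.9 CPM, which overlapped. The log2 change was 0.00 with an interval of -0.56 to 0.56, and the means of the vehicle, 1, 3, 10 and 30 µg/kg groups were 23.8, 165, 229, 229.5 and 252 CPM. *Slc46a3*, a lysosomal transporter, stood at 339, 314, 333, 302 and 289 CPM at 3 µg/kg and 265, 290.4, 327, 266 and 309 CPM at 10 µg/kg (log2 -0.11, interval -0.47 to 0.24), against means of 68.3 CPM in vehicle, 315 at 1 µg/kg and 298 at 30 µg/kg livers. *Sult5a1* was thus on a plateau in the same list of sulfotransferases in which *Sult3a1* and *Sult2a8* fell.

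*Htatip2*, an oxidoreductase-like metastasis suppressor, was at 192 ± 21.8 and 199 ± 28.1 CPM at 3 and 10 µg/kg, against 45.8 ± 5.53 CPM in vehicle livers (SD, n = 5). The transcription factor gene *Tcf4* was at 68.1 ± 9.08 and 65.8 ± 7.6 CPM, against 21.3 ± 2.42 in vehicle livers, and *Fbxw9*, an F-box protein gene, at 55.8 ± 7.87 and 65 ± 7.43 CPM against 20.5 ± 1.45. *Gstp1*, a glutathione transferase with a close paralog, *Ugt2b35*, a glucuronosyltransferase, and *Pgap1*, which remodels GPI anchors, were the plateau genes with smaller changes at 30 µg/kg. The repressed genes on a plateau were *Khk*, the fructose kinase, *Gpd2*, the mitochondrial glycerol phosphate dehydrogenase, and *Cela1*, a chymotrypsin-like elastase. *Khk* stood at 173 ± 31.6 and 151 ± 18 CPM against 408 ± 70.4 in vehicle livers, *Gpd2* at 16 ± 3.02 and 16.7 ± 3.1 CPM against 41.6 ± 6.96, and *Cela1* at 4.84 ± 1.34 and 5.01 ± 0.7 CPM against 17.5 ± 2.76. The *Khk* livers ranged from 163 to 221 CPM at 1 µg/kg and from 77.3 to 160 CPM at 30 µg/kg. At 30 µg/kg *Gpd2* ranged from 12.9 to 15.5 CPM and *Cela1* from 3.69 to 5.24 CPM. A plateau here concerns the step from 3 to 10 µg/kg only. The last of the 10 plateau genes with the largest change at 30 µg/kg, ENSMUSG00000071083, has no symbol in the annotation used and stood at 3.63 ± 0.673 and 3.9 ± 0.576 CPM. The plateau genes were well covered, with a median of 3645 reads per liver against 247 over all responsive genes.

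The 12 responsive genes that still changed are given to account for the count, although most lie outside the rule for named genes. *Entpd2*, an ectonucleotidase that breaks down extracellular ATP, stood at 5.26, 4.2, 5.12, 4.38 and 4.15 CPM at 3 µg/kg and 12.2, 9.33, 14.1, 17.2 and 22.3 CPM at 10 µg/kg, with no overlap (log2 1.71 ± 0.19, adjusted p = 2.13e-07). Of its exon bases, 28.8% are shared with the neighbouring gene *Npdc1*. *Pkp1*, a desmosomal plaque protein, rose by 1.44 on the log2 scale, *Slc28a1*, a nucleoside transporter, by 1.32, and *Serpinb6a*, a protease inhibitor, by 0.98 (adjusted p = 0.00135, 0.034 and 0.000609). Antisense genes overlap 29.3% of the exon bases of *Serpinb6a*. *Arhgap10* rose by 1.09, *Ism2* by 1.08, *Fhit* by 0.96 and *Rcan3* by 0.82, with adjusted p from 0.00103 to 0.011. *Ugt1a7c* also rose (log2 1.18, adjusted p = 0.0336), but 54.6% of its exon bases are shared with other genes, mostly of the Ugt1a family, so its value is uncertain. The genes that fell were *H2-Q1*, *S1pr5* and *Adrb3*, the beta 3 adrenergic receptor (log2 -1.39, adjusted p = 0.0221), whose livers overlapped. An antisense gene overlaps 24.9% of the exon bases of *Adrb3*. In the edgeR fit of the 10 livers alone, *Slc28a1*, *Arhgap10*, *Ugt1a7c* and *Adrb3* did not pass the test (adjusted p = 0.141, 0.0559, 0.0732 and 0.206).

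Most genes that changed at the step belonged to a later set. Of 1862 late genes, which passed the 2-fold call at 30 µg/kg but not at 1 µg/kg, 96 changed from 3 to 10 µg/kg (5.16%, against 0.784% of all genes), 70 upward and 26 downward. Another 160 late genes (8.59%, against 50.4% of all genes tested) had an interval within 1.5-fold. Of the 137 changed genes, 129 (94.2%) also differed from the vehicle at 30 µg/kg with an adjusted p under 0.05, all in the direction of the step, whereas 29.6% of all genes did so in either direction. At 1 µg/kg, 18 (13.1%) differed from the vehicle, against 1.76% of all genes, 16 of them in the direction of the step. The livers at 1 and 30 µg/kg and the vehicle livers are independent of those of the step, although all share 1 fit. The other 29 changed genes were neither responsive nor late.

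In 8 of the changed genes the difference from the vehicle at 30 µg/kg did not pass the test, namely *Slc10a2*, *Alkbh6*, *Faap100*, *Pcgf2*, *Sdr39u1*, *Trip6*, *Znf41-ps* and *Gm15318*. *Faap100*, a subunit of the Fanconi anemia core complex, stood at 4.31, 4.41, 3.54, 3.48 and 3.63 CPM at 3 µg/kg and 6.04, 4.9, 7.1, 6.66 and 6.53 CPM at 10 µg/kg (log2 0.69 ± 0.14, adjusted p = 0.00534). Its 3 µg/kg livers were below the vehicle by test (log2 -0.57, adjusted p = 0.00947), and the difference was 0.11 at 10 µg/kg (adjusted p = 0.653). *Alkbh6*, of the AlkB family of dioxygenases, was likewise below the vehicle at 3 µg/kg (log2 -0.44, adjusted p = 0.00365) and at 1 µg/kg (-0.38, 0.0416), and rose by 0.43 from 3 to 10 µg/kg (adjusted p = 0.0185) to a difference from the vehicle of -0.01 (adjusted p = 0.961). The comparison of 3 µg/kg with the vehicle shares its livers with the step. *Alkbh6* and *Slc10a2* were the genes that differed from the vehicle at 1 µg/kg against the direction of the step, and those livers are not part of it. The others of the 8 changed at the step by -1.24 to 0.91 on the log2 scale.

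**Figure D4:**
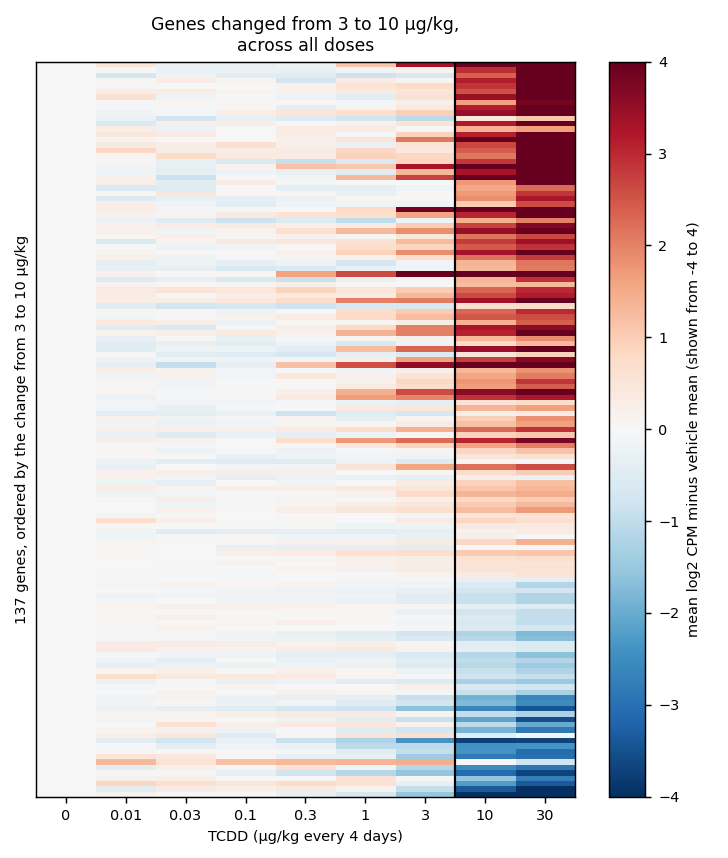
Rows are the 137 genes that changed from 3 to 10 µg/kg, ordered by that change from the largest rise at the top, columns are the doses, and colour is the mean log2 CPM minus the vehicle mean, shown from -4 to 4; the black line marks the step. Most rows are pale up to 1 or 3 µg/kg and coloured at 10 and 30 µg/kg, and the pale red stripe near the bottom is Slc10a2.

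Compared with the neighbouring steps, 31 genes changed from 1 to 3 µg/kg (0.178%) and 107 from 10 to 30 µg/kg (0.613%), steps of 3-fold in dose that share livers with this one. Whether a gene's change differed between steps was tested as a contrast. From 3 to 10 µg/kg against 1 to 3 µg/kg, 0 genes differed in edgeR (0% of genes, 732 at an unadjusted p under 0.05), and 1 in DESeq2. Against the step from 10 to 30 µg/kg, 3 genes differed (0.0172%), each with a higher signed log2 change from 3 to 10 µg/kg. *Col9a2* changed by 4.89 from 3 to 10 and by 1.72 from 10 to 30 µg/kg on the log2 scale (difference 3.16 ± 0.62, adjusted p = 0.034), and *Marveld3* by 2.99 and 0.84 (difference 2.16 ± 0.41, adjusted p = 0.034). *Gpx6*, a glutathione peroxidase, stood at 2.78, 3.11, 4, 3.54 and 3.89 CPM at 3 µg/kg and 3.54, 10.6, 7.54, 4.96 and 12.2 CPM at 10 µg/kg, with overlap, and at a mean of 2.79 CPM at 30 µg/kg. It fell by 1.47 on the log2 scale from 10 to 30 µg/kg (adjusted p = 0.00969, difference of steps 2.63 ± 0.53, adjusted p = 0.0441). Its step from 3 to 10 µg/kg did not pass the test by itself (log2 1.16, adjusted p = 0.0637). No gene differed between these steps without any of livers 1, 2, 3 or 5 at 3 µg/kg, or without liver 3 at 10 µg/kg.

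Beyond the AhR battery, 26 lists of hepatic gene groups were examined, and 6 of them had a member that passed the test, where 0.55% of all genes rose and 0.235% fell. Of 10 genes of cytosolic sulfation, 2 fell, *Sult3a1* and *Sult2a8*, and 0 rose, with a list median of -0.33 on the log2 scale. Of 30 genes of stellate cells and matrix, 28 had a higher estimate and 2 a lower one, with a median of 0.25. By the test, 2 of the 30 rose and 0 fell. *Tgfb2*, a transforming growth factor beta ligand, was among those that rose, while the collagen genes of the list lay between 0.02 for *Col5a2* and 0.50 for *Col6a3* and none passed. Without liver 1 at 10 µg/kg, 1 gene of this list rose. Of the 20 Nrf2 antioxidant genes only *Gpx2* rose, of the 20 p53 and stress genes only *Fgf21*, and of the 22 genes of the urea cycle and amino acid breakdown only *Hao1* changed, downward. Of 21 acute phase and complement genes, only *C9*, the pore-forming complement component, changed, from 203 ± 24.8 to 123 ± 26.3 CPM (log2 -0.72 ± 0.18, adjusted p = 0.0297). In this list 19 genes had a lower estimate and 2 a higher one, with a median of -0.21. An unadjusted p under 0.05 in edgeR was reached by 7 of them, all lower, and by 9.68% of all genes in either direction. *C9* lost its call without any of livers 1, 2, 3 or 5 at 3 µg/kg or 2 or 5 at 10 µg/kg (adjusted p from 0.0505 to 0.149).

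*Tgfb2* stood at 1.32, 0.745, 1.05, 0.58 and 1.16 CPM at 3 µg/kg and 3.08, 2.48, 3.49, 3.26 and 3.76 CPM at 10 µg/kg, with no overlap (fold 3.33, log2 1.74 ± 0.29, adjusted p = 0.000258). The defining markers of stellate cells *Des*, *Lrat* and *Pdgfrb* stood at 0.32, 0.37 and 0.18 on the log2 scale, and none passed (adjusted p = 0.64, 0.739 and 0.845).

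In the other 20 lists no member passed the test, and their medians lay between -0.30 and 0.28 on the log2 scale. All 23 genes of cholesterol synthesis had a lower estimate at 10 µg/kg, with a median of -0.30 and 5 at an unadjusted p under 0.05 in edgeR (a level reached by 9.68% of all genes), but 0 passed after adjustment, by edgeR or DESeq2. *Idi1*, the isomerase of isopentenyl diphosphate, had the lowest estimate (-0.85 ± 0.26, adjusted p = 0.151). Of 15 endothelial markers, 14 had a higher estimate, with a median of 0.28, and none passed. Their summed level was 352 to 422 CPM at 3 µg/kg and 433 to 498 CPM at 10 µg/kg, without overlap. Such a separation was not particular to this list. The summed bile acid genes went from 8173 to 9109 CPM at 3 µg/kg to 7000 to 7974 CPM at 10 µg/kg. Chemokines and their receptors summed to 628 to 701 CPM and then 409 to 557 CPM, also without overlap. The part of endothelial RNA in the results above was not tested. Of 17 hepatocyte genes, 14 had an interval within 1.5-fold, as did 50.4% of all genes tested, and the median was -0.06. The bile acid list does not include *Slc10a2*, the bile acid transporter that fell at the step. In this list the lowest estimate was that of *Slco1a1*, an organic anion transporter, at -1.84 with an interval of -3.47 to -0.21 (adjusted p = 0.436). *Cyp7a1*, the rate-limiting enzyme of bile acid synthesis, was at -0.92 with an interval of -2.29 to 0.46 (adjusted p = 0.754).

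The macrophage and myeloid list had a median of -0.18, and its highest estimate was that of *Gpnmb*, a glycoprotein of macrophages (1.64 ± 0.45, adjusted p = 0.0869). Without the liver that stood apart, 1 member of this list rose, as it did without liver 2 at 10 µg/kg. The MHC class II list had a median of -0.27, and its summed level of 702 CPM in that liver exceeded the 158 to 336 CPM of the other 3 µg/kg livers. The biliary markers *Krt7*, *Krt19* and *Epcam* stayed between 0.387 and 1.75 CPM in all 10 livers and did not pass the test (adjusted p = 0.909, 0.861 and 0.966). Cell cycle genes had a median of 0.03, and the 6 reference genes used for PCR a median of -0.09.

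**Figure D5:**
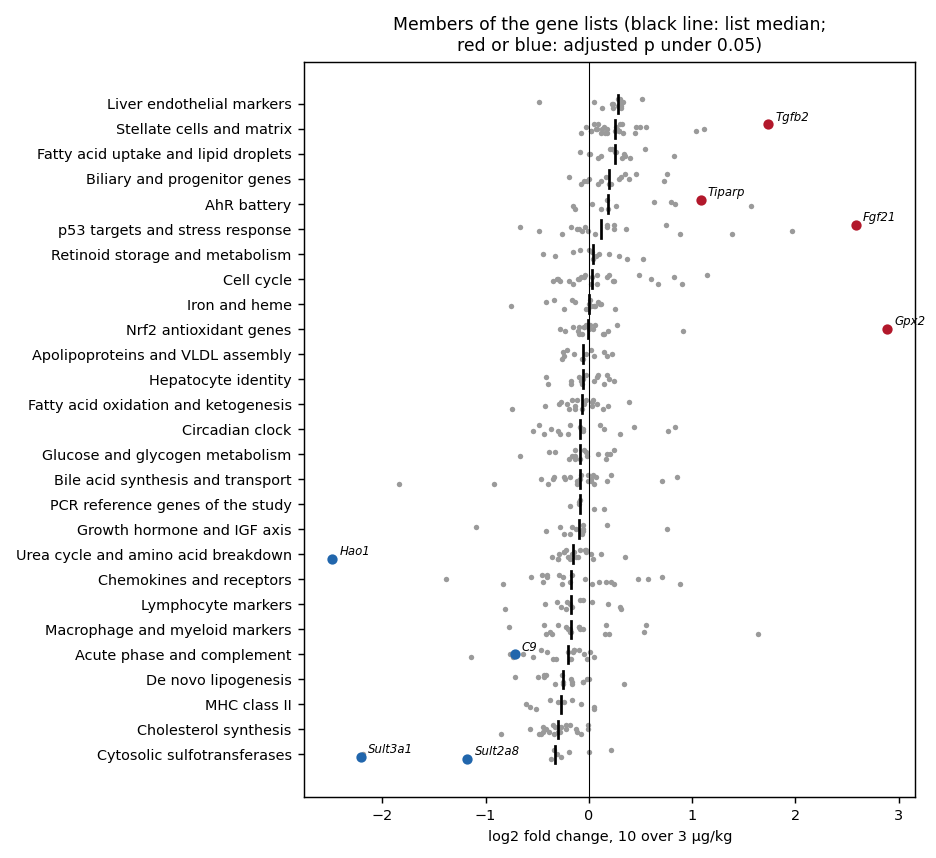
Each row is 1 gene list and each point a member reported here, placed by its log2 fold change, 10 over 3 µg/kg, on the x axis; the black line is the median of the whole list, and members with an adjusted p under 0.05 are red (higher) or blue (lower) and named. The 8 named members are Gpx2, Fgf21, Tgfb2 and Tiparp to the right and C9, Sult2a8, Sult3a1 and Hao1 to the left.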

How the data were processed

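Liver RNA of 45 mice, 5 in each of 9 groups, had been sequenced as 50-base single-end reads. The authors aligned reads to GRCm38 with TopHat 1.4.1 and counted them per gene with HTSeq 0.6.1, and deposited these counts without normalization and without reads that aligned to more than 1 place. The strand setting is not given in the sources used here. The authors pooled random samples for sequencing, and the pool of each mouse is not in the labels, so no comparison could be made within pools. Groups came from the dose labels, and livers were numbered in accession order.

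Genes with more than 4 reads in any liver (17464 of 39179) were tested with edgeR 4.0.16 in R 4.3.3: TMM normalization, all 45 livers in 1 fit with 1 coefficient per group, the quasi-likelihood test and Benjamini-Hochberg adjustment over all genes. CPM uses TMM library sizes. Intervals are 95% Wald intervals with the fit's moderated spread. Precision is lowest where reads are few. No gene set test was run. Alternatives covered DESeq2 1.42.0 and its size factors, no TMM, other filters, the 10 livers alone, counts thinned to the smallest library, and each liver left out.

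The named genes are the 10 largest increases and decreases (adjusted p under 0.05, a mean of at least 10 reads, no overlap), up to 4 changed members per list, the AhR battery, 10 plateau genes and those differing between steps. Some genes that the rule selects are not reported here. Members, lists and rules were chosen with earlier results of these data known. Symbols came from the annotation tables, exons and gene positions from GENCODE vM21 (GRCm38), a later annotation than the one counted. Genes named outside this rule were chosen after their values were seen.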

Additional observations from a re-analysis of the deposited data

Results flagged for a closer look

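In 3 of the 90 groups examined (2 doses for each named gene that is reported), 1 liver lay far from the other 4, and chance alone gives this in about 1 in 20 groups. *Parm1* was at 0.0644 CPM in liver 4 at 3 µg/kg, which is 1 read, below 0.289 CPM in the next lowest. *S1pr5* was at 0.386 CPM in liver 5 at 10 µg/kg, below 1.27 CPM. *St6galnac2* was at 1.61 CPM in liver 1 at 3 µg/kg, the liver that stood apart, above 1.16 CPM.

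In 3 genes the signed log2 change from 3 to 10 µg/kg was higher than that from 10 to 30 µg/kg by the test of the difference (edgeR contrast). The differences were 3.16 for *Col9a2*, 2.16 for *Marveld3* and 2.63 for *Gpx6*, where the later step was a fall, on the log2 scale, and each call depended on which livers were kept.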

How the results depend on the processing

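With DESeq2's size factors, no TMM, other filters, the 10 livers alone or thinned counts, 116 to 138 genes changed, and DESeq2's Wald test called 195, with 74 falling in place of 41. Of the 137 genes, 91 were also called in the 10 livers alone, 65 under all 18 settings, and none changed direction. Leaving out each liver gave 94 to 147 changed genes, 63 to 99 rises, 27 to 48 falls, 7 to 14 changed and 11 to 17 plateau genes among the responsive, 70 to 103 changed late genes and 0 to 4 genes differing from the step from 10 to 30 µg/kg. Thinned counts left 1 such gene. DESeq2 called 1 gene as differing from the step from 1 to 3 µg/kg, where edgeR called 0. The plateau count was 2 with the narrower margin, 72 with 2-fold and 26 when the step was tested in the 10 livers alone, which was chosen after seeing the data. Of the 47 named genes, 9 crossed the threshold under some setting and 0 reversed. The cause of these shifts was not tested. No paired analysis was possible because the labels carry no number shared between the groups.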

Other observations

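Several genes that changed at the step encode proteins of epithelial junctions and polarity. They were chosen after their values were seen and were not tested as a group. *Pkp3*, a desmosomal plaque protein, went from 1.33 ± 0.434 CPM at 3 µg/kg to 4.18 ± 1.13 CPM at 10 µg/kg (SD, n = 5, log2 1.62, edgeR adjusted p = 7.65e-05). *Ovol1*, a transcription factor of epithelial differentiation, went from 1.55 ± 0.659 to 5.87 ± 1.03 CPM (log2 1.86, adjusted p = 9.94e-06), though 22% of its exon bases overlap antisense genes. *Kdf1*, a regulator of keratinocyte differentiation, went from 4.49 ± 0.601 to 8.58 ± 1.68 CPM (log2 0.93, adjusted p = 0.000288), and *Prss8*, an epithelial membrane protease, from 3.61 ± 1.02 to 8.91 ± 2.87 CPM (log2 1.31, adjusted p = 0.0114). Smaller rises were those of *Patj*, a tight junction polarity protein (log2 0.60, adjusted p = 0.00498), *Nectin2*, an adhesion receptor (0.58, 0.0297), and *Ctnna1*, the alpha catenin of adherens junctions (0.23, 0.0316). These calls were unequally stable: of the 18 settings, *Patj* passed in 17, *Nectin2* in 12 and *Ctnna1* in only 7. *Zeb1*, a repressor of epithelial genes, fell from 18.5 ± 2.27 to 13.5 ± 0.98 CPM (log2 -0.46, adjusted p = 0.00157). The biliary markers *Krt7*, *Krt19* and *Epcam*, given above, did not pass the test.

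Among membrane and signalling proteins, also chosen after their values were seen, *Slc6a8*, the creatine transporter, rose from 3.86 ± 0.748 to 12.4 ± 2.92 CPM (log2 1.67, adjusted p = 2.13e-07) and *Adgrg1*, an adhesion G protein-coupled receptor, from 3.61 ± 0.949 to 10.1 ± 2.57 CPM (adjusted p = 4.12e-06). *Nrg1*, an EGF family ligand, rose from 0.335 ± 0.0686 to 1.17 ± 0.493 CPM (log2 1.85, adjusted p = 0.0037), and *F2rl1*, a protease-activated receptor, from 0.348 ± 0.147 to 1.45 ± 0.24 CPM (adjusted p = 0.00044). The tyrosine kinase gene *Src* rose by 1.03 on the log2 scale (adjusted p = 0.000855). *Msrb3*, a methionine sulfoxide reductase, rose by 0.86 and *Gstm2*, a glutathione transferase with near paralogs, by 0.85 (adjusted p = 0.000151 and 0.000253).

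Several abundant transcripts of secreted proteins and hepatic enzymes fell by less than 2-fold. *Serpinf1*, the pigment epithelium-derived factor, went from 403 ± 21.9 to 298 ± 36 CPM (log2 -0.43, adjusted p = 0.00328), *Lect2*, a hepatokine, was lower by a log2 change of -0.56 (adjusted p = 0.0277), and *Pros1*, the anticoagulant protein S, went from 82.4 ± 9.66 to 56.5 ± 4.86 CPM (log2 -0.54, adjusted p = 0.0108). *Shmt1*, the cytosolic serine hydroxymethyltransferase, went from 212 ± 11.5 to 156 ± 14.5 CPM (log2 -0.44, adjusted p = 0.0114). *Acsl3*, a long-chain acyl-CoA synthetase, fell by 0.72 on the log2 scale (adjusted p = 0.0207). *Slc22a26*, an organic anion transporter, fell by more, 1.18 on that scale, from 217 ± 40.9 to 95.4 ± 24.4 CPM (adjusted p = 0.0294). These genes too were chosen after their values were seen. In the 6 genes of this paragraph every 10 µg/kg liver lay below every 3 µg/kg liver. The groups did not overlap, in either direction, in 2.85% of all genes tested. Of the 18 settings, *Slc22a26* passed in 12, *Lect2* and *Acsl3* in 14, *Serpinf1* and *Shmt1* in 17 and *Pros1* in 18.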
